A study of Mus musculus with 4 samples.

Results

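The Fraser complex genes and their epithelial adhesion partners were followed in mouse small intestinal (SI) organoids that carried a miR-181a-5p mimic. The 7 genes were Fras1, Frem1, Frem2, Grip1, Npnt, Itga8 and Itgav, out of 55487 listed genes. Fras1 was chosen by its large fall in these same libraries, so its values are given as a description with no test. The other 6 were named for what they encode, proteins that form or bind the Fraser complex. Of the 7 genes, 3 (Fras1, Npnt and Itgav) passed the filter on low counts, which kept 17155 genes.

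SI organoids are epithelial cultures grown from intestinal crypts, and the study asked what lies downstream of miR-181a-5p in their growth and differentiation. Every culture was transduced with a lentivirus and kept in puromycin at 2 μg/ml. The lentivirus carried a miRNA mimic control in 2 libraries, replicates 1 and 2, and the miR-181a-5p mimic in 2 libraries, replicates 3 and 4. The labels give no strain, age or separate culture for a library, so p-values here measure only the spread between these libraries, which may be technical. Expected counts, the estimated reads per gene, summed to between 31104884 and 38111731 per library. The hairpin genes Mir181a-2 and Mir181a-1 had 0 counts in all 4 libraries, so these data do not measure the mimic itself. Levels of different genes are compared as TPM, an abundance corrected for transcript length, and 1 gene is compared between libraries as normalized CPM, its share of the reads after scaling of the libraries.

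FRAS1, FREM1 and FREM2 are large extracellular proteins that depend on one another to settle in the basement membrane under epithelia, where they hold the epithelium to the tissue beneath. GRIP1 is a cytoplasmic PDZ protein that carries FRAS1 and FREM2 to the basal side of the cell, and nephronectin, the product of Npnt, is a matrix protein that binds integrin α8β1. Integrin α8 is the product of Itga8 and pairs with integrin β1. Integrin αv, the product of Itgav, pairs with several β chains, and both receptors recognize the RGD motif of matrix ligands. Loss of Fraser complex genes is known for skin blistering, fused digits and absent kidneys rather than for the intestine.

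The mature miRNA for which the mimic is named is shown first because the 7 transcripts were searched for its matches. It is given with its seed, bases 2 to 8, in capitals, as in the RefSeq annotation of GRCm38.p6, where it comes from the Mir181a-1 hairpin at chr1:137966468-137966490 on the plus strand. The miR-181b-5p, miR-181c-5p and miR-181d-5p miRNAs have the same seed.
miR-181a-5p: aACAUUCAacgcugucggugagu

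A match to the seed is the 7 letters TGAATGT on the transcript's strand, and the 8-letter form TGAATGTA has an A after it. In the longest annotated 3′ UTR of each gene (GENCODE M21, GRCm38, UTRs of at least 50 bases), 16.7% of 20661 genes held TGAATGT and 5.37% held TGAATGTA. Among the 7 genes only Frem1 held TGAATGT there, and none held TGAATGTA. The Frem1 match began 150 bases after the stop codon in a 3′ UTR of 2479 bases, and the printed window lies at chr4:82900232-82900260 on the minus strand. Frem1 had no reads in any library, so a fall in it could not be seen. Capitals mark the match in each window.
Frem1, 3′ UTR: agatgactgtaTGAATGTgcctttcaaga

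The 3′ UTR of Fras1, the gene that fell, is 2957 bases long and held no match, while 44.5% of 3′ UTRs at least that long held one. Itgav, with 3581 bases, and Npnt, with 2685 bases, had none either. Outside the 3′ UTR, 11.8% of genes held TGAATGT in their coding sequence, among them Fras1 and Npnt. That share is over coding sequences of any length, and a longer one has more places for a match. The Fras1 match lies in exon 29 of 74 at coding base 3758 of 12030, in the window chr5:96657247-96657275 on the plus strand. The Npnt match lies in exon 8 of 14 at coding base 657 of 1827, at chr3:132906816-132906822 on the minus strand, and its window crosses an exon junction. A match describes letters and does not show a site that the miRNA binds.
Fras1, coding sequence: ggatgtggtcgTGAATGTgcttgatcctc
Npnt, coding sequence: gtggatattgaTGAATGTgcgactggaag

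Fras1 (ENSMUSG00000034687), which encodes the founding protein of the complex, spans chr5:96373955-96784728 of GRCm38 on the plus strand. It had 693 and 1206.8 expected counts in mimic controls 1 and 2, and 20 and 23 in miR-181a-5p mimic libraries 3 and 4. Both control libraries lay far above both mimic libraries. In normalized CPM the values were 18.1 and 38.9 in the controls against 0.639 and 0.646 under the mimic. The 2 controls differed 2.15-fold from each other and the 2 mimic libraries 1.01-fold, while even the lower control stood 28-fold above the higher mimic library. The mean went from 28.5 ± 14.8 to 0.642 ± 0.00529 normalized CPM (SD, n = 2 each), a log2 fold change of -5.46 (standard error, SE, 0.43), or 44-fold. Without mimic control 2 it was -4.80. In bulk libraries fewer cells of a type and less RNA per cell cannot be told apart. The fold change of Fras1 ranked 10 from the lowest of the 17155 genes tested. In the same contrast 1.42% of genes tested were called lower and 0.554% higher, from which nothing is read about Fras1 because the contrast chose it.

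**Figure D1:**
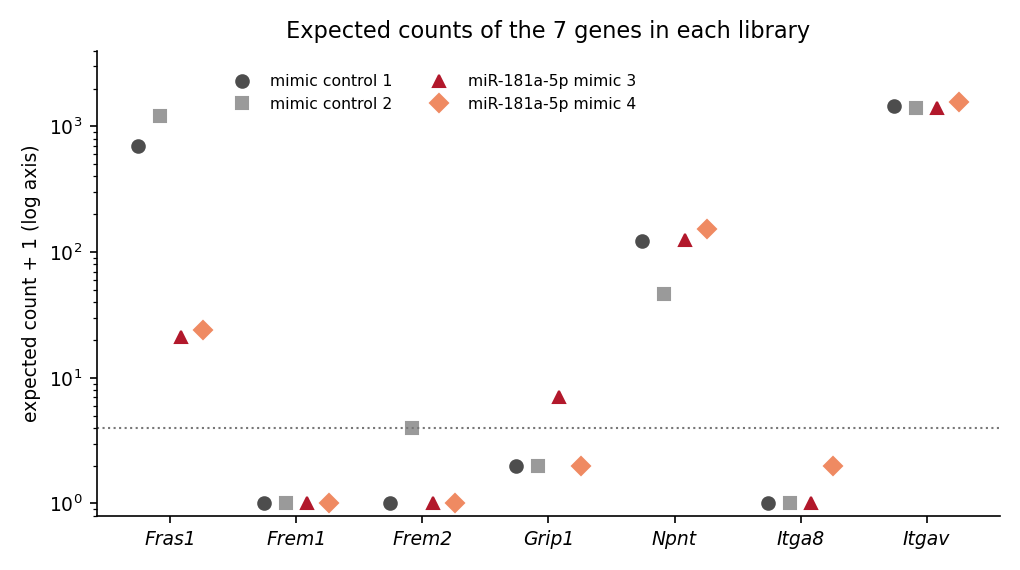
Expected counts plus 1 (log axis) of the 7 genes in each of the 4 libraries; grey points are mimic controls 1 and 2, coloured points miR-181a-5p mimic libraries 3 and 4, and the dotted line marks 3 counts. Fras1 drops from 693 and 1206.8 counts to 20 and 23, Itgav lies between 1397.62 and 1555.65 in every library, and Frem1, Frem2, Grip1 and Itga8 never exceed 6.

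On the TPM scale Fras1 was at 1.4 and 3.05 in the controls and at 0.1 and 0.06 with the mimic. It was thus a gene of low abundance even where it was highest: 74.1% and 63.8% of tested genes had at least its TPM in the controls, and 98.1% and 99.4% did with the mimic. The ratio of counts to TPM gives the mean transcript length to which the quantifier assigned the reads. That length was 15746 and 15777 bases in the controls, close to the longest annotated Fras1 transcript of 15848 bases. In mimic library 4 it was 14431 bases, between 13321 and 15743 given the rounding of the TPM. In mimic library 3 it was 7842 bases, between 7469 and 8255, so some of its 20 counts were assigned to shorter transcripts and its TPM overstates the full-length form. Of the antisense genes inside Fras1, Gm33050 had 0 to 2 counts and Gm42604 0 to 2.2, and whether the counting used strand is not stated.

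The Frem genes were at or near 0 counts in these epithelial cultures. Frem1 was at 0 counts in all 4 libraries. Frem2 had 0 and 3 counts in the controls against 0 and 0 under the mimic. The relative Frem3, which was not among the 7, had 1, 1, 3 and 0. Summed over both libraries of a group, the 3 Frem genes came to 5 counts in the controls and 3 with the mimic. Thus Fras1 was read at 693 and 1206.8 counts in the controls while the 3 Frem genes were at or near 0. A count of 0 allows up to 3 counts, which is 0.0782 to 0.0968 CPM in these libraries, and covers counting error only.

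Grip1, which encodes the trafficking partner, had 1 and 1 counts in the controls against 6 and 1 under the mimic. Itga8, which encodes the α chain of the nephronectin receptor, had 0 and 0 in the controls against 0 and 1 under the mimic. Frem1, Frem2, Grip1 and Itga8 had at most 6 counts in every library and were not tested. A fall in any of them could not be seen from such counts, and under the mimic none rose above 6 counts.

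Npnt (ENSMUSG00000040998, chr3:132881745-132950291, minus strand), the gene of nephronectin, was read in every library. It had 121 and 45 expected counts in the controls against 123 and 153 under the mimic. In normalized CPM these were 3.16 and 1.45 against 3.93 and 4.30, so both mimic libraries lay above both controls. The difference was 0.82 on the log2 scale (SE 0.35, 95% interval -0.01 to 1.65), unadjusted p = 0.0516, adjusted p = 0.208 by the quasi-likelihood test of edgeR. Npnt was not called, where a call needed an adjusted p under 0.05 and a fold change of at least 2. The value depended on both controls: the log2 fold change was 1.49 without mimic control 1 and 0.39 without mimic control 2. Without a filter on low counts the adjusted p was 0.0265 but the fold change was still below 2.

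Among markers of other cell types, the summed level of 12 mesenchymal markers followed the order of Npnt. It was 4.47 and 2.77 TPM in the controls against 4.55 and 7.45 under the mimic, and these 4 values ranked as the TPM of Npnt did. Vim made up most of each sum, at 2.24 to 6.82 TPM, and no such order held for 3 other markers, of which Pdgfrb was at 0.35 and 0.21 against 0.26 and 0.34 TPM, Acta2 at 0.19 to 0.22 TPM, and Pdgfra had 17 and 7 against 2 and 0 counts. Col1a2, Col3a1, Dcn and Lum were at 0 counts in every library, 4 of the 12 markers. Col1a1 had 2 or 3 counts. Of the 12, 3 were tested, and edgeR's quasi-likelihood test and DESeq2 called 0 and gave 0 an unadjusted p under 0.05. The same held for limma, but its filter on TPM kept only Vim of these 3. The part of these markers in the Npnt values was not tested.

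Itgav (ENSMUSG00000027087, chr2:83724397-83806916, plus strand), the gene of integrin αv, was the most abundant of the 7 genes. It had 1451.94 and 1397.62 expected counts in the controls against 1401.56 and 1555.65 under the mimic. In normalized CPM it was at 37.9 and 45.1 against 44.8 and 43.7, so the mimic libraries lay within the range of the controls. The log2 fold change was 0.09 (SE 0.12, 95% interval -0.18 to 0.36; adjusted p = 0.658, edgeR's quasi-likelihood test). The interval leaves out a 2-fold change in either direction. Without mimic control 1 the log2 fold change was -0.03 (adjusted p = 0.91).

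Of the 6 genes other than Fras1, 0 were called by edgeR's quasi-likelihood test, and 0 of the 2 tested had an unadjusted p under 0.05, against 24.5% of all genes tested. The background was 0.554% of tested genes called higher and 1.42% called lower. By edgeR's exact test, its likelihood-ratio test and DESeq2, 0 were called and 1, Npnt, had an unadjusted p under 0.05. By limma on log2(TPM + 1), 0 were called and 0 had such a p.

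**Figure D2:**
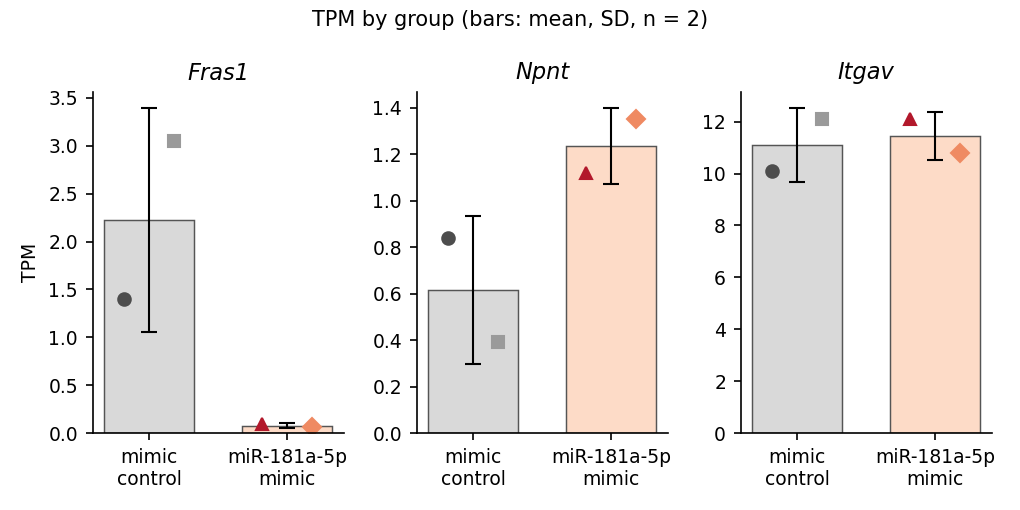
TPM of Fras1, Npnt and Itgav in mimic control and miR-181a-5p mimic libraries; bars are means with SD (n = 2) and points are libraries, with a separate axis for each gene. Fras1 falls from a mean of 2.22 to 0.08 TPM, Npnt is at 0.615 and 1.24 TPM, and Itgav at 11.1 and 11.5.

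The order of the tested genes by TPM changed between the groups. In the controls it was Itgav at 10.1 and 12.1 TPM, Fras1 at 1.4 and 3.05, and Npnt at 0.84 and 0.39, with no overlap between neighbours in that order. Fras1 was 1.67 and 7.82 times the TPM of Npnt there. With the mimic the order was Itgav at 12.1 and 10.8, Npnt at 1.12 and 1.35, and Fras1 at 0.1 and 0.06. Fras1 then had 0.0893 and 0.0444 times the TPM of Npnt, and Itgav stood 121- and 180-fold above Fras1 against 7.19- and 3.97-fold in the controls. The control library with more Fras1, mimic control 2, had less Npnt.

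The rest of the adhesion system was described from 8 lists of 105 genes, of which 77 were tested, 2 were called higher and 2 lower. Over all genes tested the shares were 0.554% and 1.42%. The lists were chosen with earlier results of these data known, so their counts are a description. Without mimic control 2 the count called lower was 7, and without mimic library 4 it was 8, while over all genes it went from 244 to 537 and 403. Over all tested genes the median log2 fold change was -0.01. In 6 of the lists (67 genes, 49 tested) no gene was called by edgeR's quasi-likelihood test, 12 (24.5%) had an unadjusted p under 0.05, the same share as over all genes tested (24.5%), and 1 had an adjusted p under 0.05. By DESeq2 and by edgeR's exact and likelihood-ratio tests 2 of the 49, Itga7 and Vwa2, were called, and by limma on log2(TPM + 1) none was, with 6 at an unadjusted p under 0.05. That limma fit took only genes with a TPM of at least 1 in 2 or more libraries, so it left out some of the 49.

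Among the relatives of the complex, 3 of 5 were tested, 0 were called and the median log2 fold change was -0.06. Vwa2, the gene of AMACO, a basement membrane protein that binds FRAS1, had 1.45 and 0.85 TPM in the controls against 2.66 and 2.31 under the mimic. Its log2 fold change was 1.04 (SE 0.28; adjusted p = 0.0876, edgeR's quasi-likelihood test). Like Npnt it was lowest in mimic control 2. With 1 library left out its log2 fold change ran from 0.72, without mimic control 2, to 1.49, without mimic control 1. Egfl6, which encodes another matrix ligand of integrin α8β1, had 0.07 to 0.31 TPM, and Grip2, the paralog of Grip1, had 0.05 to 0.16. Hmcn1, which encodes hemicentin-1, was at 0 in every library.

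The β chains that pair with integrin α8 or αv were read at very different levels. Itgb1 was at 88.5 and 99.0 TPM in the controls against 87.1 and 107 under the mimic, so its log2 fold change was -0.01 (SE 0.11; adjusted p = 0.954). The β1 chain of the nephronectin receptor was thus abundant where the α8 chain was near 0. Itgb6, the chain of the epithelial receptor αvβ6, was at 10.7 and 9.28 TPM against 6.68 and 8.76, with a log2 fold change of -0.52 (SE 0.17; adjusted p = 0.128). Itgb5 was at 3.73 to 4.88 TPM in the 4 libraries, Itgb8 had 2 to 5 counts and Itgb3 had none. Of these 7 pairing or related integrin genes 4 were tested and 0 called, with a median log2 fold change of -0.35.

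The other integrins of the epithelium were led by the laminin receptor chains. Itga6 was at 108 and 111 TPM in the controls against 147 and 150 under the mimic, a log2 fold change of 0.38 (SE 0.10; adjusted p = 0.0823). Itgb4, its partner in hemidesmosomes, was at 26.9 to 31.2 TPM, and Itga3, another laminin receptor chain, at 22.3 to 28.6. All 10 genes were tested, 0 were called, and the median was -0.44. Itga7, a laminin receptor chain best known from muscle, was at 2.27 and 2.84 against 0.67 and 1.52 TPM, a log2 fold change of -1.32 (SE 0.39; adjusted p = 0.102, and 0.0218 to 0.0261 by DESeq2 and the other tests of edgeR). With 1 library left out its log2 fold change ran from -2.12, without mimic library 4, to -0.81, without mimic library 3. Itga1, which encodes a collagen receptor chain, was the 1 gene at an adjusted p under 0.05 (0.031; edgeR's quasi-likelihood test). It went from 10.1 and 7.57 to 4.14 and 5.44 TPM, under the fold threshold at a log2 fold change of -0.91 (SE 0.15), and it was singled out after its values were seen.

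Ligands with an RGD motif, or carriers of such ligands, were scarce. Of 13 genes 5 were tested and 0 called, with a median log2 fold change of -0.28. Thbs1, the gene of thrombospondin-1, was the most abundant at 0.78 to 2.21 TPM, followed by Tgfb1 at 0.5 to 0.92 TPM and Ltbp3 at 0.19 to 0.99. Fn1, the gene of fibronectin, had 0 to 4 counts, Vtn had 0 or 1 and Spp1 none. Of the partners of GRIP1 outside the Fraser complex, such as ephrin B ligands and their receptors, 11 of 15 were tested, 0 were called and the median was 0.17. Kif5b, a kinesin heavy chain, Ptprf, a receptor phosphatase, and Ephb4, an ephrin receptor, led that list at 84.9 to 119, 67.8 to 83.7 and 42.0 to 51.0 TPM, although Grip1 itself was near 0.

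The called genes were structural parts of the basement membrane or cleave matrix. Of 27 basement membrane genes 19 were tested, 2 were called higher and 1 lower, with a median log2 fold change of -0.14. Col4a1, the gene of a collagen IV chain, had 6 and 4 counts in the controls against 97 and 101 under the mimic, a log2 fold change of 4.33 (SE 0.36; adjusted p = 0.00385). Col4a2, its partner chain, had 11 and 11 against 68 and 106 counts (log2 fold change 3.0, SE 0.35; adjusted p = 0.0101). Col4a1 was at 0.14 and 0.04 TPM in the controls against 0.9 and 0.99 under the mimic. It passed the filter on low counts only through the mimic libraries, so nothing is read from its call. Col4a1 and Col4a2 lie head to head in the genome and share a promoter region. Lamb1, the gene of laminin β1, had 88 and 81 against 16 and 25 counts (log2 fold change -2.0, SE 0.31; adjusted p = 0.0232). All 3 adjusted p values are from edgeR's quasi-likelihood test. The most abundant genes of the list, Smoc2, Agrn and Lamb3, were not called. Smoc2 was at 159 and 128 TPM in the controls against 185 and 219 under the mimic. Lamb3 was at 36.1 and 30.4 against 15.9 and 26.6 TPM, and Agrn at 29.9 to 34.7. Hspg2 went from 6.57 and 5.07 to 2.94 and 3.77 TPM, a log2 fold change of -0.84 (SE 0.13, adjusted p = 0.0243, edgeR's quasi-likelihood test). That is under the fold threshold, and Hspg2 was singled out after its values were seen.

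The 17 genes of epithelial anchorage, such as Dag1, Sdc1 and Sdc4, had 16 tested, 0 called and a median of -0.04. Dag1, the gene of dystroglycan, was at 93.2 and 111 TPM in the controls against 113 and 132 under the mimic. Among 11 convertases and sheddases 9 were tested and 1 was called lower, with a median of -0.20. Furin, which encodes a convertase of secreted proteins, was at 30.2 to 42.0 TPM, Pcsk5 at 32.5 and 41.7 in the controls and Adam10 at 57.7 to 77.5. The called gene was Mmp14, which encodes a membrane-bound matrix metalloproteinase and was listed with earlier results of these data known. Mmp14 is therefore given as a description, and nothing is read from its call or from its place in the counts. It had 983 and 736 counts in the controls against 11 and 24 under the mimic (log2 fold change -5.56, SE 0.26).

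**Figure D3:**
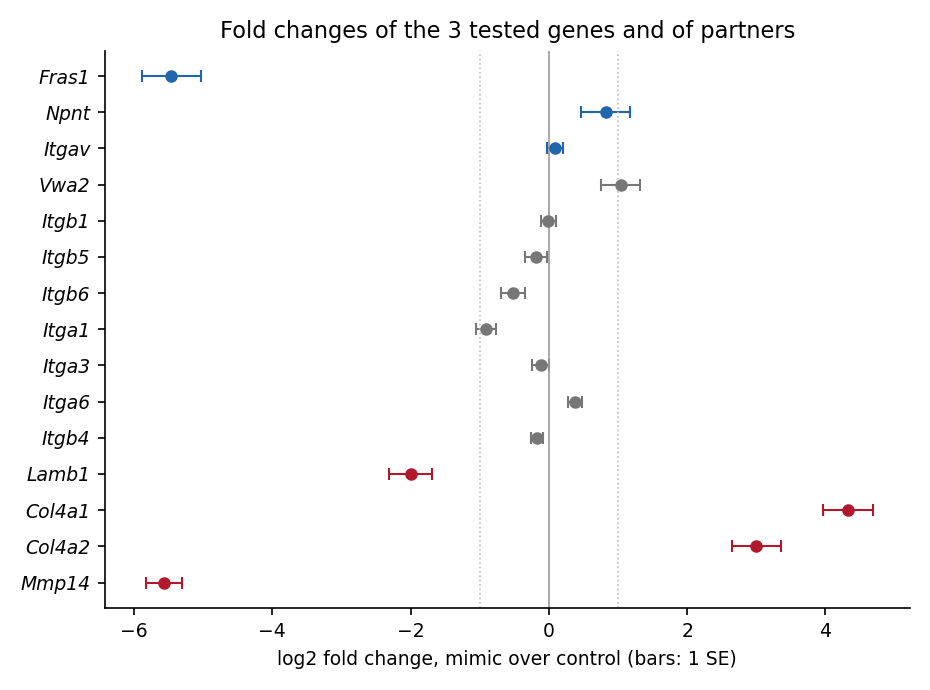
Log2 fold change (mimic over control) with bars of 1 standard error for the 3 tested genes of the complex (blue), the called partner genes (red) and other partners (grey); dotted lines mark a 2-fold change. Fras1 and Mmp14 lie beyond -5, Col4a1 and Col4a2 at 4.33 and 3.0, and the 8 integrin genes drawn between -0.91 and 0.38. Of the integrin genes not drawn, Itga7, Itga9 and Itgae lie outside that range, at -1.32, -0.93 and 0.68.

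The genes whose pattern over the 4 libraries was most like that of Fras1 were found from log2 normalized CPM centred on each gene's mean, among genes with at least 100 counts in each control. In order of root mean square difference they were Mmp14 at 0.51, Reg1 at 0.60, Pdk4 at 0.91, Pdx1 at 1.05 and Dmbt1 at 1.07 log2 units. Their log2 fold changes were -5.56, -5.23, -4.79, -3.22 and -3.06, given here with no test because the fall of Fras1 chose them. Reg1 encodes a secreted lectin, Pdk4 a pyruvate dehydrogenase kinase, Pdx1 a transcription factor of the duodenum and pancreas, and Dmbt1 a secreted mucosal scavenger receptor protein. Only Pdx1 of the 5 lies on chromosome 5, at chr5:147269959-147275848, far from Fras1. Dmbt1, Pdx1 and Reg1 were higher in mimic control 2 than in mimic control 1, as Fras1 was. In normalized CPM they were at 786 against 400, 13.3 against 8.82 and 84.4 against 75.7. Pdk4 (3.84 against 7.88) and Mmp14 (23.7 against 25.6) were lower in mimic control 2.

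The genes around Fras1 were read because position was not used to choose it. Within 1 Mb of its start 41 genes were listed, 10 were tested and 1 was called, with a median log2 fold change of -0.35. Over all genes tested 0.554% were called higher and 1.42% lower, and the median was -0.01. The called gene was Gm42603, a provisional transcript record at chr5:96798207-96800352, which begins 13.5 kb past the end of Fras1 on the same strand. It passed the filter on low counts only through the controls, so nothing is read from its call. It had 33 and 32 counts in the controls against 1 and 1 under the mimic, a log2 fold change of -4.82 (SE 0.58; adjusted p = 0.0107, edgeR's quasi-likelihood test).

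Gm42603 lies within Anxa3 (chr5:96793339-96845966, same strand), the gene of annexin A3, which begins 8.61 kb past the end of Fras1. Anxa3 had 363 and 334 counts in the controls against 166 and 174 under the mimic, so its groups were well apart. Its log2 fold change was -0.99 (SE 0.18; adjusted p = 0.0354), just short of the 2-fold threshold. It passed that threshold without mimic control 1 (-1.09), without mimic library 3 (-1.04) and with a minimum of 10 counts in every library (-1.0). Its adjusted p was no longer under 0.05 without mimic library 4 (0.0626) or by limma on TPM (0.145, 0.153 and 0.322). Reads of Gm42603 and Anxa3 may have been shared between the overlapping records.

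Of the other 8 tested neighbours 0 were called by edgeR's quasi-likelihood test, with 1, Cnot6l, at an unadjusted p under 0.05. The exact and likelihood-ratio tests of edgeR, DESeq2 and limma on log2(TPM + 1) also called 0 of the 8, though limma's filter on TPM left out Paqr3. On the side before Fras1, Mrpl1, which encodes a mitochondrial ribosomal protein, was at -0.07 (SE 0.10) and Cnot6l, which encodes a deadenylase subunit, at -0.26 (SE 0.11). On the side past Anxa3, Gm43147 was at -0.03, Gm33370 at -0.45, Gm9484 at -0.63, Gm43145 at 0.10 and Paqr3 at -0.57. Bmp2k, which encodes a kinase, was the highest of the 10 at 0.30 (SE 0.14). Of the 31 neighbours that were not tested, Gm5559 and Gm7993, processed pseudogenes that start at -512 and -400 kb from the start of Fras1, also had more counts in the controls. Gm5559 had 9.52 and 27.58 counts against 0 and 0, and Gm7993 had 12.31 and 9.36 against 3.1 and 1.22. These 2 were named after their values were seen, and reads of a processed pseudogene may be shared with its parent gene.

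**Figure D4:**
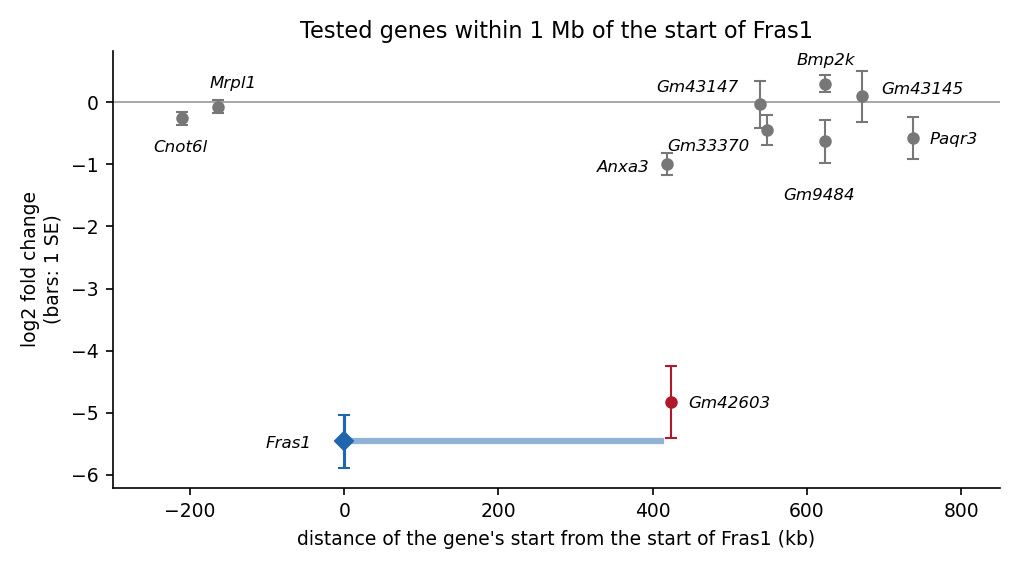
Log2 fold change (mimic over control, bars of 1 standard error) of the 10 tested genes within 1 Mb against the distance of their start from the start of Fras1 in kb; the blue line is the span of Fras1 and red marks the called gene. Gm42603 at -4.82 and Anxa3 at -0.99 sit just past the end of Fras1, and the other 8 lie between -0.63 and 0.30.

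The label of intestinal epithelium was checked against 8 epithelial markers, whose summed level was 3330 and 3410 TPM in the controls against 3020 and 3580 under the mimic. Epcam alone had 615 to 713 TPM, and 0 of the 8 were called by edgeR's quasi-likelihood test, DESeq2 or limma on log2(TPM + 1), with 2 at an unadjusted p under 0.05 by each. By edgeR's quasi-likelihood test the 2 went opposite ways. Krt18 was at 426 and 313 TPM in the controls against 217 and 294 under the mimic, and Cdx2 at 74.5 and 74.9 against 92.4 and 103. Endothelial markers summed to 0.16 to 0.43 TPM with Cdh5, Kdr and Emcn at 0. Leukocyte markers summed to 0.47 and 0.78 TPM in the controls against 0.97 and 1.34 under the mimic. Most of that came from Itgam, which was not called. Glial and neuronal markers summed to 1.9 to 3.17 TPM, and S100b, 1 of those 5, was called lower (1.31 and 0.92 against 0.25 and 0.10 TPM; adjusted p = 0.0365, edgeR's quasi-likelihood test). S100b passed the filter on low counts only through the controls, so nothing is read from its call. The part of these markers in the fall of Fras1 was not tested.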

How the data were processed

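RNA-seq of 4 SI organoid libraries was analysed. The authors trimmed reads with Trimmomatic, quantified them with RSEM on GRCm38 and deposited expected counts per gene, without normalization, and TPM, scaled within each library by the authors; the annotation release and any use of strand are not given in the sources used here. Libraries were rRNA-depleted per the supplemental methods but poly(A)-enriched per the labels. In each file 3 columns matched no sample and were not used. Symbols were matched for 55141 of 55487 genes. Expected counts (31104884 to 38111731 per library) were rounded and entered the quasi-likelihood test of edgeR 4.0.16 (R 4.3.3; glmQLFit and glmQLFTest after filterByExpr, TMM scaling and estimateDisp; p-values adjusted over 17155 genes by Benjamini-Hochberg), called at adjusted p under 0.05 and a fold change of at least 2. Simulated counts with planted changes were used to check the fit. With 2 libraries per group, spread between libraries sets the precision, and an exact two-sided permutation test of 1 gene cannot go below 0.333.

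The 7 genes, the lists and the tests were chosen with earlier results of these data known. Named genes are the 7, called genes of each list and its 3 highest by TPM, and tested neighbours. The 5 genes most like Fras1 (log2 CPM with a prior of 0.125) are named too. Itga1, Itga7, Hspg2, Krt18, Cdx2 and untested neighbours were named after their values were seen. Mean transcript length was derived from counts over TPM, scaled on 663 genes with 1 transcript, and coding-sequence matches were sought; both were added after the data were seen. Coordinates and transcripts are from GENCODE M21. The alternatives tried were the exact and likelihood-ratio tests of edgeR, DESeq2 1.42.0, RLE factors, library totals, no filter, at least 10 counts in every library, limma 3.58.1 on log2(TPM + 1) and log2(TPM + 0.1), which understates changes of low genes, and each library left out. Plots used matplotlib 3.10.9. Protein features were not analysed here.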

Additional observations from a re-analysis of the deposited data

How the results depend on the processing

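The log2 fold change of Fras1 was -5.46 and stayed negative in all 14 alternatives, at -1.53 by limma on log2(TPM + 1) with or without a filter, -3.60 on log2(TPM + 0.1), where the pseudocount compresses low values, and -5.92 to -4.80 with 1 library left out. Npnt ranged from 0.39 to 1.49 (adjusted p 0.0265 to 0.41) and passed both thresholds only without mimic control 1 (1.49), which makes 1 of the 6 genes called there and 0 to 1 over libraries left out. Itgav ranged from -0.03 to 0.23 (adjusted p 0.26 to 0.91) and changed sign only without mimic control 1 (-0.03). Of the genes of the 7 with a seed match, 1 had it in a 3′ UTR, 0 as the 8-letter form, and 2 in coding sequence. Partner-list genes called numbered 2 higher and 2 lower, against 4 and 5 with no filter, 3 and 4 by edgeR's exact and likelihood-ratio tests, 2 and 4 without the fold threshold, 0 and 1 by limma at either pseudocount, 0 and 0 by limma without a filter, and 1 and 2 with at least 10 counts in every library. With 1 library left out they numbered 2 to 3 higher and 2 to 8 lower. Over all genes the 95 higher and 244 lower became 200 and 530 by the exact test, 214 and 559 by the likelihood-ratio test, 286 and 734 with no filter, 207 and 373 without the fold threshold, 30 and 41 and then 11 and 16 by limma at pseudocounts 1 and 0.1, 2 and 0 by limma without a filter, and 116 to 205 and 204 to 537 with 1 library left out (205 and 537 without mimic control 2, and 403 lower without mimic library 4). Col4a1, Col4a2, Lamb1, Mmp14 and Gm42603 lost their call in 1 alternative each, limma on log2(TPM + 1) without a filter (adjusted p 0.235 to 0.302), while Anxa3 ranged from -1.09 to -0.70 (adjusted p 0.000138 to 0.322), and Itga7 and Vwa2 were called in 5 of 14 alternatives each; where a filter removed one of these genes it has no value. When a library was left out, its group's lone library was assumed to vary like the other group. No paired analysis was possible because the groups share no replicate numbers. Frem1, Frem2, Grip1 and Itga8 had too few counts in the controls for a fall to be seen.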
